A study of Bos taurus with 24 samples.

Results

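HIF1A (ENSBTAG00000020935) and ENO3 (ENSBTAG00000005534) were followed in bovine monocyte-derived macrophages (MDMs), and they are 2 of the 24616 genes in the deposited tables. They were picked by gene identifier, with earlier results of these libraries known, among them the difference between responder groups. Both passed the filter on low counts, which 11905 genes passed over all 24 libraries. The 24 libraries came from MDMs of lactating Holstein cows classed as high or low responders by how much nitric oxide their MDMs made in culture. All cells were grown for 6 days in AIM V medium with 5 ng/ml recombinant bovine GM-CSF, a growth factor that drives monocytes towards macrophages. For each cow and time point, 1 well served as control and the other received Escherichia coli (E. coli) killed with paraformaldehyde (PFA) at an MOI of 5 (bacteria per macrophage). RNA was taken after 3 or 18 hours, which gave 8 conditions of 3 libraries each: high or low responder, control or E. coli, 3 or 18 hours.

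HIF1A encodes the oxygen-regulated alpha subunit of hypoxia-inducible factor 1 (HIF-1). In the presence of oxygen the protein is hydroxylated and degraded, and when it is stable it pairs with ARNT and switches on genes of glycolysis, glucose uptake and blood vessel growth. In macrophages, bacterial signals also raise HIF1A transcription, and HIF-1 is known for its part in inflammatory activation. Enolase carries out the next to last step of glycolysis. ENO1 is the form found in most cells, and ENO3 is the beta form, known best from muscle.

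The libraries held between 6297190 and 20936554 expected counts (estimated read pairs per gene), with a median of 12375479.5. The expected counts of HIF1A and ENO3 were whole numbers in all 24 libraries. HIF1A had 2097 to 13496 of them per library and ENO3 26 to 1936, so that ENO3 was counted with less precision. The macrophage markers CD68, CD14, MSR1 and AIF1 were found in every library, with CD68 at 1215 to 2671 TPM (RSEM's relative level per transcript length). The markers moved with E. coli. Over both responder groups, MSR1 stood at 373 to 635 TPM in the 6 control wells and 15.5 to 43.4 TPM in the 6 exposed wells of 18 hours, and at 286 to 788 and 198 to 474 TPM at 3 hours. The mean of CD14 at 18 hours was 220.0 TPM in control and 114 TPM in exposed wells, that of AIF1 235 and 103 TPM, and that of CD68 1981 and 2505 TPM. The sum of the 4 markers was 2259 to 3681 TPM in control and 2442 to 2937 TPM in exposed wells at 18 hours, and 2041 to 3800 and 1653 to 2536 TPM at 3 hours. The part of these shifts in the changes of HIF1A and ENO3 was not tested. CD79A, a B cell marker, did not exceed 2.67 TPM. Markers of T cells, NK cells, dendritic cells, neutrophils, platelets and skeletal muscle were not analysed here. In such bulk libraries, fewer cells of a type and less RNA per cell cannot be told apart. Wells are named by the number in their library code, and the control and E. coli wells of 1 group, time and number were taken as wells of 1 cow. A number does not name the same cow throughout both time points. High responders carried 92, 93 and 94 at 3 hours and 91, 93 and 94 at 18 hours, while the study had 3 cows per group. The letters of the codes recur in each group at both times, but the labels do not say what they stand for. Cow numbers are therefore used only within 1 group and time point. For the E. coli effects and their change with time, p-values rest on the spread of the changes between cows. For levels at 18 against 3 hours, they rest on the spread between wells.

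HIF1A was raised by E. coli in every cow at both time points, by 3.32-fold at 3 hours and 2.34-fold at 18 hours in the mean. Levels are given as CPM, counts relative to the size of the library after scaling with TMM factors. In high responders at 3 hours, HIF1A went from 436 to 1476 CPM in cow 92, from 409 to 1480 in cow 93 and from 227 to 1248 in cow 94. In low responders at 3 hours, it went from 211 to 507 CPM in cow 91, from 375 to 1118 in cow 92 and from 405 to 984 in cow 93. The control wells of both groups overlapped, and each held 1 well with a low level (cow 94 of the high and cow 91 of the low responders). All 3 exposed wells of the high responders lay above all 3 of the low responders.

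At 18 hours the same gene stood at similar control levels. In high responders, HIF1A went from 387 to 1031 CPM in cow 91, from 349 to 925 in cow 93 and from 507 to 1609 in cow 94. In low responders, it went from 353 to 778 CPM in cow 91, from 281 to 461 in cow 92 and from 356 to 779 in cow 94. Again the control wells overlapped and the exposed wells did not. The highest HIF1A level of all 24 libraries was that of the exposed high responder cow 94 at 18 hours.

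**Figure D1:**
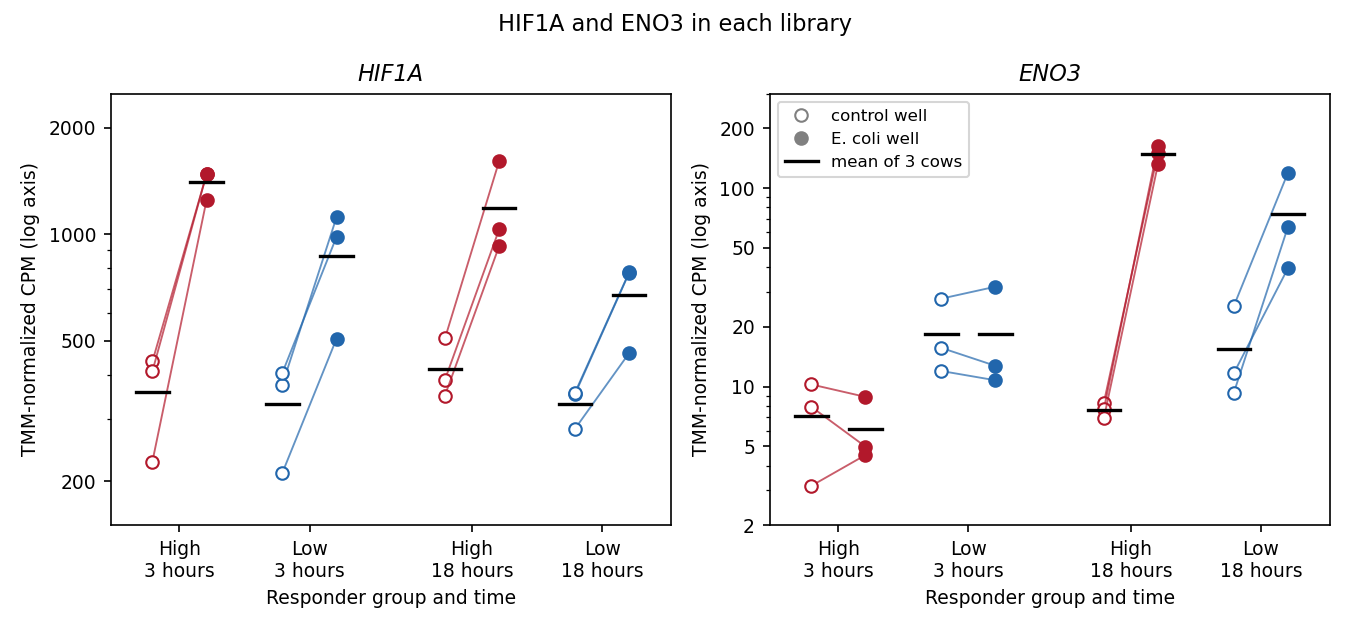
HIF1A (left) and ENO3 (right) in each of the 24 libraries, as TMM-normalized CPM on log axes, by responder group and time. Open points are control wells, filled points E. coli wells, lines join the wells of 1 cow and black bars are means of 3 cows; HIF1A rose in all cows at both times, and ENO3 was called at 18 hours alone, where the 3 exposed high responders reached 132 to 164 CPM.

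Averaged over both responder groups, E. coli raised HIF1A 3.32-fold at 3 hours (log2 fold change 1.73, SE 0.11, 6 of 6 cows, edgeR quasi-likelihood test with adjusted p = 4.64e-06). A gene was called when its adjusted p was below 0.05 and its fold change above 1.5, and 25.5% of the 11264 genes tested at 3 hours were called for this mean effect (13.5% higher, 12% lower). HIF1A ranked 582 by size among the 2872 called. At 18 hours the mean rise was 2.34-fold (log2 1.23, SE 0.077, 6 of 6 cows, edgeR adjusted p = 4.89e-07), where 36.5% of 11759 genes were called (15.1% higher, 21.4% lower). There HIF1A ranked 1927 of 4289.

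The mean effect on HIF1A fell by 0.45 on the log2 scale from 3 to 18 hours (SE 0.14, edgeR adjusted p = 0.0183), a change smaller than the fold limit of 1.5, so it was not called. For this change, 26.8% of 11905 genes were called (10.7% higher, 16.1% lower). Levels in control wells at 18 against 3 hours differed by log2 0.11 (SE 0.22, edgeR adjusted p = 0.936), a comparison in which 0.0504% of genes were called (0.0168% higher, 0.0336% lower). In exposed wells the value was log2 -0.30 (SE 0.22, edgeR adjusted p = 0.280), against 28.8% of genes called (13.1% higher, 15.7% lower).

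The rise of HIF1A was larger in high than in low responders, and this contrast was among the results known when the gene was picked, so that its values are a description. At 3 hours the fitted effects were 4.22-fold in high responders (log2 2.08, SE 0.16) and 2.61-fold in low responders (log2 1.38, SE 0.16), a difference of log2 0.69 (SE 0.22). The changes per cow ran from log2 1.76 to 2.46 in high and from 1.26 to 1.58 in low responders, without overlap. High responders lay above low responders without overlap in 9.22% of all genes for the change per cow and in 8.32% for the exposed wells. At 18 hours the effects were 2.79-fold (log2 1.48, SE 0.11) and 1.96-fold (log2 0.97, SE 0.11), a difference of log2 0.51 (SE 0.15). The changes ran from log2 1.40 to 1.67 and from 0.71 to 1.14, again without overlap, as in 10.9% of all genes (12.3% for the exposed wells), while 11.9% had the lower change in high responders.

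The difference in HIF1A lay mainly in the exposed wells. By geometric mean, high responders were 1.08-fold above low responders in control wells at 3 hours and 1.25-fold at 18 hours. In exposed wells they were 1.70-fold above at 3 hours and 1.76-fold at 18 hours. Among the 8 conditions ordered by mean CPM, HIF1A ran from 329.9 ± 42.1 (SD, n = 3) in low responder controls at 18 hours to 1401 ± 133 in exposed high responders at 3 hours. Each condition overlapped its neighbour in that order, although the ends of the order were far apart. The 4 control conditions (means of 329.9 to 415 CPM) all came below the 4 exposed conditions (673 to 1401 CPM).

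ENO3 behaved differently in time, with no call at 3 hours and a 9.42-fold mean rise at 18 hours. In high responders at 3 hours, ENO3 went from 7.92 to 4.99 CPM in cow 92, from 3.16 to 4.52 in cow 93 and from 10.3 to 8.88 in cow 94. In low responders, it went from 12 to 10.8 CPM in cow 91, from 15.7 to 12.7 in cow 92 and from 27.8 to 31.9 in cow 93. On this scale 2 cows went up and 4 down. Each low responder well at 3 hours stood above every high responder well of the same treatment.

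At 18 hours, ENO3 in high responders went from 8.29 to 151 CPM in cow 91, from 7.68 to 164 in cow 93 and from 6.92 to 132 in cow 94. In low responders, it went from 9.32 to 64.1 CPM in cow 91, from 11.7 to 39.6 in cow 92 and from 25.5 to 120 in cow 94. Low responders were still the higher group in control wells, but in exposed wells every high responder was above every low responder in CPM. In TPM the exposed wells overlapped, with low responder cow 94 at 126 TPM and high responder cow 94 at 123 TPM. The high responders were close to each other (coefficients of variation of 9.02% in control and 10.6% in exposed wells), while the low responders were spread (56.3% and 55.2%), with cow 94 highest in both wells. Its wells carry the code letters E and F, as do those of cow 93, the highest low responder at 3 hours (27.8 and 31.9 CPM). Both may be the same animal, which the labels do not say. The other low responder control wells at 18 hours, at 9.32 and 11.7 CPM, were nearer to the high responders.

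Averaged over responder groups, the effect of E. coli on ENO3 at 3 hours was log2 -0.06 (SE 0.16, edgeR adjusted p = 0.793). The direction at 3 hours depended on the scale: in TPM, ENO3 was lower in the exposed well of 6 of 6 cows (log2 -1.19 to -0.11). At 18 hours the mean effect was a 9.42-fold rise (log2 3.24, SE 0.12, 6 of 6 cows, edgeR adjusted p = 1.56e-08), and ENO3 ranked 317 of the 4289 called genes. These were the wells in which MSR1 was at 15.5 to 43.4 TPM. The mean effect changed 10.1-fold from 3 to 18 hours (log2 3.34, SE 0.20, edgeR adjusted p = 7.93e-08), rank 130 of 3185. Control wells at 18 against 3 hours differed by log2 -0.07 (SE 0.35, edgeR adjusted p = 0.978), and exposed wells rose 9.71-fold (log2 3.28, SE 0.37, edgeR adjusted p = 1.08e-06), rank 159 of 3434.

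The responder groups differed in ENO3 in opposite ways before and after the late rise, again as a description. At 18 hours the effect of E. coli was 19.3-fold in high responders (log2 4.27, SE 0.17) and 4.61-fold in low responders (log2 2.20, SE 0.16), a difference of log2 2.06 (SE 0.23). The changes per cow were log2 4.18 to 4.41 in high and 1.76 to 2.78 in low responders. For this difference, 1.62% of 11759 genes were called, 1.34% with the larger effect in high responders, and at 3 hours 0.178% of 11264 were. At 3 hours the difference was log2 -0.01 (SE 0.32), and the changes overlapped.

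Both kinds of well entered the difference at 18 hours. Low responders were 1.85-fold above high responders in control wells, and high responders were 2.20-fold above low responders in exposed wells. At 3 hours low responders were 2.73-fold above in control and 2.79-fold above in exposed wells. High responders lay below low responders without overlap in 6.88% (control, with 5.91% above) and 10.3% (exposed) of all genes at 3 hours and in 13.3% of genes in control wells at 18 hours. They lay above without overlap in 12.3% of genes in exposed wells at 18 hours, on the CPM scale.

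**Figure D2:**
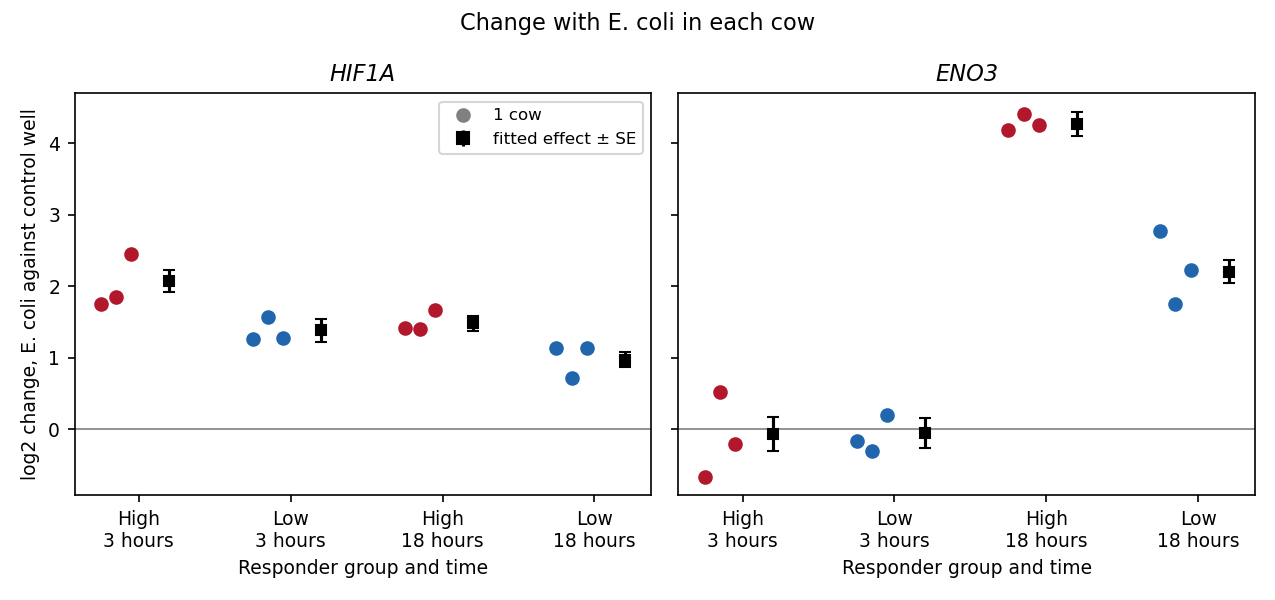
Change of HIF1A (left) and ENO3 (right) with E. coli, as the log2 ratio of the E. coli to the control well, by responder group and time. Round points are single cows, black squares are fitted effects with their SE; ENO3 lies around 0 at 3 hours and at log2 1.76 to 4.41 at 18 hours, while HIF1A is above 0 in every cow at both times.

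In the order of condition means, ENO3 ran from 6.13 ± 2.39 CPM (SD, n = 3) in exposed high responders at 3 hours to 149 ± 15.8 in exposed high responders at 18 hours. The 3 lowest conditions were those of high responders outside the late exposed wells, with means of 6.13 to 7.63 CPM, and these overlapped one another. Then came the 3 low responder conditions outside the late exposed wells, at 15.5 to 18.5 CPM, which also overlapped. The exposed low responders at 18 hours stood at 74.5 ± 41.2 CPM, above those and below the exposed high responders without overlap on this scale.

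ENO1, the general enolase, was far more abundant than ENO3 in all conditions. Per transcript length, ENO1 lay between 1127 and 2355 TPM over the 24 libraries, and ENO3 between 3.53 and 149 TPM. ENO3 made up 6.52% ± 1.39 (SD, n = 3) of the summed ENO1 and ENO3 TPM in exposed high responders at 18 hours and 4.84% ± 2.52 in exposed low responders. In the other 6 conditions its mean share was at most 1.40%. ENO1 changed little with E. coli: log2 0.25 at 3 hours (SE 0.091, edgeR adjusted p = 0.0530) and log2 0.37 at 18 hours (SE 0.066, edgeR adjusted p = 7.29e-04), below the fold limit. The fitted effect on ENO1 at 18 hours was log2 0.54 (SE 0.093) in high and 0.19 (SE 0.093) in low responders. ENO1 was found only through a study table ordered by that difference. At 3 hours the direction of ENO1 also depended on the scale, higher in 5 of 6 cows in CPM and lower in 6 of 6 in TPM. At 18 hours ENO1 was higher in 6 of 6 cows in CPM and in 5 of 6 in TPM, where its median change was log2 0.067. HIF1A itself spanned 116 to 796 TPM.

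**Figure D3:**
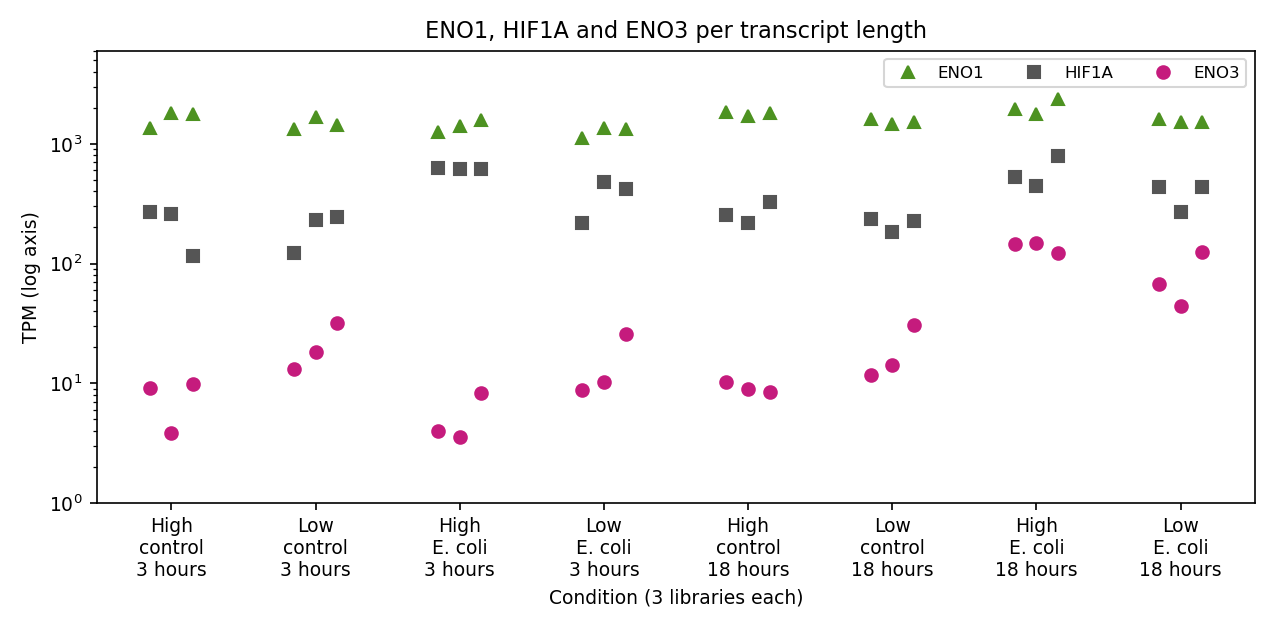
ENO1 (triangles), HIF1A (squares) and ENO3 (circles) in TPM on a log axis, 3 libraries per condition. ENO1 stays between 1127 and 2355 TPM, and ENO3 comes closest to it in the exposed wells of 18 hours, at up to 149 TPM.

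The other genes of glycolysis were taken from a list of 31 enzymes and transporters, of which 16 had an identifier and 15 were tested. Their symbols came in part from a study table ordered by the responder difference at 18 hours, which gave 10 of the 16, so no count of that difference over the list is read as a result. At 3 hours, 3 of the 15 were called higher with E. coli and 1 lower, and at 18 hours 3 higher and 4 lower. Among the 5 tested genes whose symbol stood in a table ordered by identifier, 0 were called at 3 hours. At 18 hours 0 of these 5 were called higher and 3 lower, with a median of log2 -0.64. All genes called higher at either time were thus found only through the table ordered by the responder difference. Over all genes tested, 13.5% were called higher and 12% lower at 3 hours, and 15.1% and 21.4% at 18 hours, so that the 4 of 15 at 3 hours were near the 25.5% of all genes and the 7 of 15 at 18 hours stood beside 36.5%. With library totals in place of TMM factors, a scaling that moved the median of all genes to log2 -0.45, the counts at 3 hours were 2 higher and 5 lower. The median of the list was log2 0.02 at 3 hours and -0.06 at 18 hours, beside medians of -0.02 and -0.02 over all genes tested.

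SLC2A3, a high-affinity glucose transporter, rose 8.57-fold at 3 hours (log2 3.1, SE 0.14, edgeR adjusted p = 5.36e-07) and 6.71-fold at 18 hours (log2 2.75, SE 0.13, edgeR adjusted p = 1.01e-07). PFKFB3, which makes the activator of phosphofructokinase, rose by log2 1.99 at 3 hours and 1.28 at 18 hours, and its effect was smaller at the later time (log2 -0.66, SE 0.21, edgeR adjusted p = 0.0233). SLC2A1, the widespread glucose transporter, rose by log2 0.59 and 1.20, in all 6 cows at both times, a change of 0.66 (SE 0.13). Its call at 3 hours, at 1.51-fold just past the limit, was lost without high responder cow 93 (log2 0.50), low responder cow 92 (0.58) or low responder cow 93 (0.56).

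SLC16A3, a lactate exporter, fell by 0.97 on the log2 scale at 3 hours (SE 0.12, 6 of 6 cows, edgeR adjusted p = 2.15e-04), and its effect then rose by log2 1.31 (SE 0.13) to 18 hours, when it was not called. At 18 hours, the phosphofructokinase subunits PFKP and PFKM fell by 1.22 and 0.80 on the log2 scale, in 6 of 6 cows each. PFKP was not called at 3 hours, and its effect fell by 1.23 between the times (SE 0.14, edgeR adjusted p = 2.18e-05). SLC16A1, a lactate and pyruvate transporter, fell by 0.74 and PFKFB2, a relative of PFKFB3, fell by 0.64, both in 6 of 6 cows at 18 hours. The PFKFB2 call was lost without high responder cow 94 (log2 -0.50). TPI1, GAPDH, PGK1, PGAM1, PKM and LDHA, which catalyse central and late steps, were not called for the mean effect at either time. At 18 hours GAPDH (log2 -0.35) and PKM (-0.32) missed the fold limit alone (edgeR adjusted p = 0.00138 and 0.00126). There LDHA stood at log2 0.67 in high and -0.30 in low responders. TPI1, PGAM1 and PGK1 were likewise positive in high and negative in low responders, while GAPDH and PKM were negative in both. TPI1, GAPDH, PGAM1 and LDHA were found only through the table ordered by that difference.

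Of 16 listed partners and regulators of HIF, HIF1AN, which hydroxylates the HIF alpha subunit, and ELOC, part of the ubiquitin ligase that marks it for degradation, had an identifier. For the mean effect, 0 of 2 were called by edgeR or by DESeq2 at either time, while 1 at 3 hours and 2 at 18 hours had an unadjusted p below 0.05. ELOC stood at log2 0.30 (SE 0.072) and 0.38 (SE 0.085), and HIF1AN at 0.08 (SE 0.083) and 0.19 (SE 0.071). ENO2, EPAS1, HIF3A, ARNT, EGLN1, EGLN2, EGLN3 and VHL were not analysed here.

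Of 31 genes listed as known HIF targets, 16 had an identifier, 8 of them through the table ordered by the responder difference. With E. coli, 10 of 15 tested were called higher and 1 lower at 3 hours, and 11 of 16 higher and 2 lower at 18 hours, beside 13.5% of all genes higher and 12% lower at 3 hours and 15.1% and 21.4% at 18 hours. The list median was log2 1.08 and 1.14, against -0.02 and -0.02 over all genes. Among the targets whose symbol stood in a table ordered by identifier, 4 of 7 rose at 3 hours, and 5 of 8 rose and 1 fell at 18 hours. Many of these genes also answer to other signals of inflammation, and which signal acted was not tested.

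NOS2, the inducible nitric oxide synthase, rose by log2 8.01 (SE 0.19) at 3 hours and 9.56 (SE 0.16) at 18 hours. Nitric oxide output was the basis of the responder classes. ADM, which encodes the vasodilating peptide adrenomedullin, rose by log2 4.58 (SE 0.22) and 7.25 (SE 0.17). Its control wells held 3 to 29 counts at 3 hours and 11 to 39 at 18 hours, so that the sizes of both changes rest on few reads. DDIT4, an inhibitor of mTORC1, went the other way in time, with rises of log2 4.40 (SE 0.12) and 2.26 (SE 0.14). FLT1, a VEGF receptor, also peaked early, at log2 1.91 and then 1.24.

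CA12, a membrane carbonic anhydrase, rose by log2 1.57 at 3 hours, in 5 of 6 cows, and by 3.49 at 18 hours, in 6 of 6. At 3 hours its effect was log2 2.96 (SE 0.33) in high and 0.19 (SE 0.35) in low responders. That difference was not called (edgeR adjusted p = 0.0603), and CA12 control wells at 3 hours held 8 to 41 counts. CXCR4, the chemokine receptor for CXCL12, rose by log2 1.36 and 1.53. HMOX1, which breaks down haem, fell by 1.16 on the log2 scale at 3 hours, in 6 of 6 cows, and by 0.81 at 18 hours, in 5 of 6. At 18 hours HMOX1 stood at log2 -0.27 (SE 0.19) in high and -1.35 (SE 0.20) in low responders. That difference was not called, and HMOX1 was found only through the table ordered by it. ANGPTL4, an inhibitor of lipoprotein lipase, fell by 0.81 at 18 hours in 5 of 6 cows. All these calls of the mean effect held in edgeR at an adjusted p of at most 7.87e-04.

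Between the time points, the effect grew for ADM (log2 2.71, SE 0.36), CA12 (1.97, SE 0.28), NOS2 (1.61, SE 0.23), the collagen prolyl hydroxylase gene P4HA2 (1.07, SE 0.18) and the stress gene NDRG1 (0.82, SE 0.13). The rises of DDIT4 (log2 -2.10, SE 0.20) and FLT1 (-0.62, SE 0.20) were smaller at 18 hours. ANGPTL4 went from log2 0.16 at 3 hours, not called, to its fall at 18 hours, a change of -0.92 (SE 0.20). In all, 6 of 16 targets were called up and 3 down for this change, beside 10.7% and 16.1% of all genes.

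**Figure D4:**
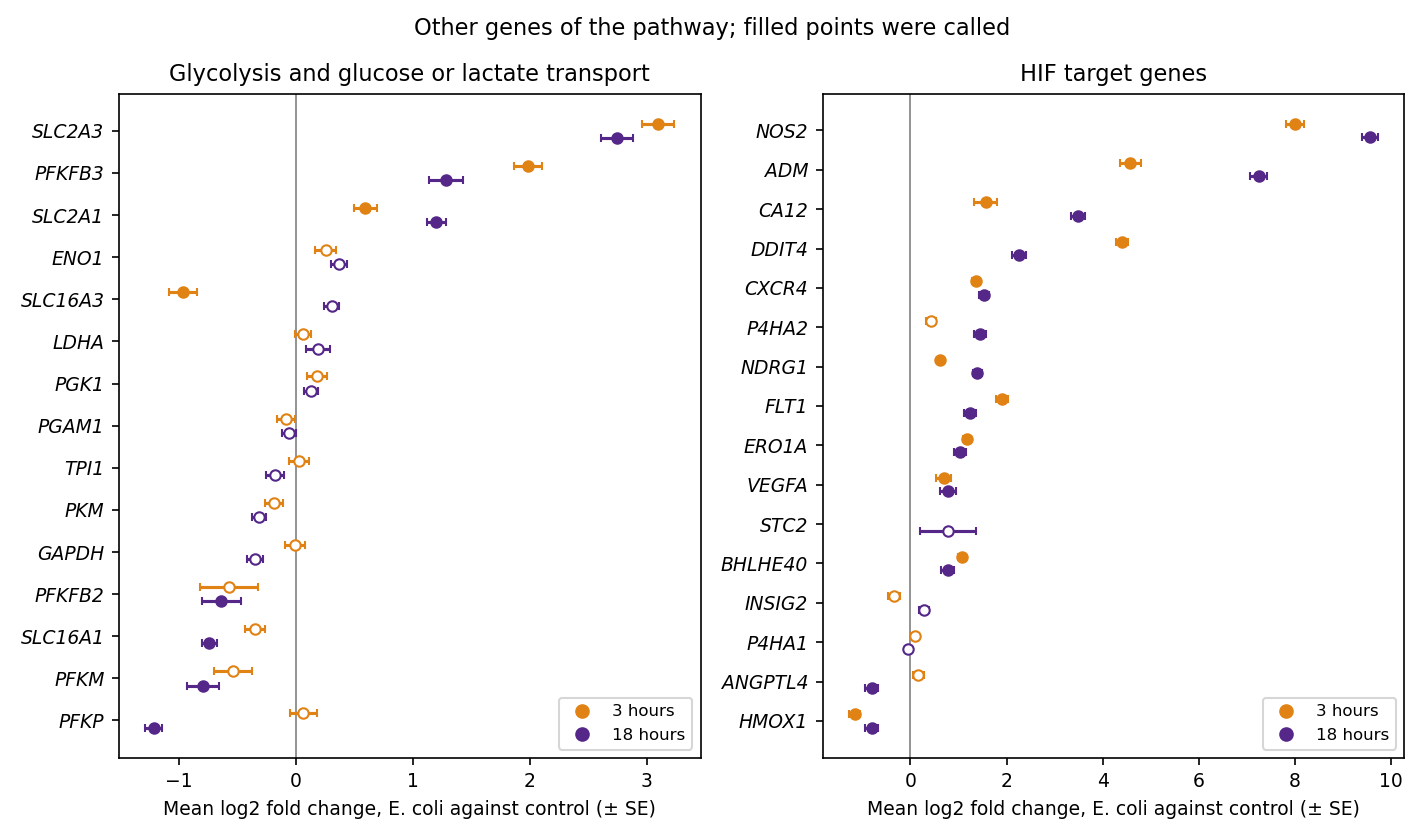
Mean log2 fold change with E. coli (± SE) of the tested genes of the glycolysis list (left) and the HIF target list (right), at 3 hours (orange) and 18 hours (purple). Filled points were called; SLC2A3, PFKFB3 and SLC2A1 lead the left panel, and NOS2 at log2 8.01 and 9.56 leads the right.

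Over the 24 libraries, the Pearson correlation of the log2 CPM of HIF1A and ENO3 was 0.315, a description over libraries that share cows and conditions. By that measure ENO3 stood at place 3198 of 11904 genes for likeness to HIF1A. The genes most like HIF1A were IRAK3 (r = 0.968), TAB2 (0.966), LYN (0.963), RASSF2 (0.962) and ENSBTAG00000012022 (0.961). The genes most like ENO3 were ZDHHC3 (r = 0.958), S100A9 (0.952), S100A12 (0.949), ADGRE5 (0.948) and H1F0 (0.944). IRAK3, a brake on Toll-like receptor signalling, had its highest mean in exposed high responders at 3 hours, at 122 ± 11.4 CPM (SD, n = 3), as HIF1A did. S100A9, a calgranulin subunit, had its highest mean in exposed high responders at 18 hours, at 761 ± 397 CPM, as ENO3 did, and stood at 248 ± 175 CPM in exposed low responders.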

How the data were processed

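MDMs were sequenced as 24 stranded mRNA libraries. The authors trimmed reads with Trimmomatic, checked them with FastQC 0.11.5, aligned them to the UMD 3.1 genome using STAR, and estimated gene levels using RSEM. The deposited values are RSEM expected counts (estimated counts, not normalized), TPM per transcript length, and effective lengths in bases, which served for length offsets. Expected counts were rounded. TPM were used for levels between genes and not tested.

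Differences were tested in edgeR 4.0.16 (R 4.3.3), using TMM factors, the filter for low counts, and a quasi-likelihood fit per time point with a term for each cow and 1 E. coli effect per responder group. All 24 libraries entered the fits of change and level with time. The change fit had a term for each cow at each time, and the level fit had no cow term. By the study's methods the same 6 cows gave wells at both times, so these fits treat wells of 1 cow at different times as independent. P-values were adjusted by Benjamini-Hochberg over all genes tested, and calls needed an adjusted p below 0.05 and a fold change above 1.5. Same-numbered wells of a group and time deviated together (correlations of 0.334 to 0.729 in 12 pairs, against -0.564 to 0.00103 in 24 others). Each set of wells was centred on its own mean, so higher values in matched pairs bring lower ones in the others. The number is also part of a library code used in both responder groups, so these correlations cannot tell a shared cow from a shared code. The pairing comes from the library codes and from the methods, where each treated sample has its own control.

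The 2 genes, the gene lists and the tests were chosen with earlier results of these data known. Named are both genes, the enolases, the HIF partners, up to 5 called genes per list, comparison and direction with the largest change, and the 5 genes most correlated with each. Symbols came from copies of the study's supplementary tables that hold part of their rows, which named 2808 genes, 1834 of them from a table in identifier order. No library was left out. Fits were tested on simulated data. Alternatives were RLE factors, no filter, DESeq2 1.42.0, length offsets, no cow term, a term for library code, other thresholds and leaving out each cow. The term for library code was an added E. coli effect for code numbers 93 and 94 against 91 and 92. These numbers were not spread evenly over the responder groups. The level fits were also run with blocks by the letter of the library code. Library totals without TMM factors were added after the data were seen. Library size limits the precision of ENO3 in particular.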

Additional observations from a re-analysis of the deposited data

Results flagged for a closer look

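The effect of E. coli at 18 hours differed between the responder groups in 2 genes of the lists, by the edgeR test of the difference itself. CA12 rose 21-fold in high responders (log2 4.39, SE 0.18) and 5.97-fold in low responders (log2 2.58, SE 0.23), a difference of log2 1.82 (SE 0.33, adjusted p = 0.0314). The changes per cow, log2 4.16 to 4.83 and 2.35 to 2.99, did not overlap. Over all genes, high responders lay above without overlap in 10.9% and below in 11.9%. Control wells held as few as 5 counts of CA12. SLC2A3 rose 10.7-fold (log2 3.42, SE 0.20) and 4.21-fold (log2 2.07, SE 0.19), a difference of log2 1.35 (SE 0.25, adjusted p = 0.0350), with a symbol known only through the table ordered by this difference, so that its call is no independent result. Both calls were lost without high responder cow 91 or 94 or low responder cow 92 or 94, with adjusted p-values of 0.0533 to 0.156 for CA12 and 0.0593 to 0.0914 for SLC2A3. Neither gene was called without the cow term or with the term for library code. The call rate for this difference was 1.62% of all genes.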

How the results depend on the processing

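Each mean effect and change called for HIF1A and ENO3 kept its direction and its call under every alternative run: HIF1A at 3 hours (log2 1.3 to 1.79) and 18 hours (1.03 to 1.3), ENO3 at 18 hours (3.04 to 3.36), its change with time (3.23 to 3.51) and its exposed wells (3.01 to 3.62). The 8 values that turned sign belonged to uncalled effects near 0. ENO3 at 3 hours ran from -0.19 to 0.050 when each cow was left out, and turned without high responder cow 92. In control wells at 18 against 3 hours, HIF1A ran from -0.015 to 0.19 and ENO3 from -0.35 to 0.14 without 1 cow, and ENO3 gave 0.019 with library totals alone. Library totals moved the median of all genes to -0.45 at 3 hours and -0.21 at 18 hours, where TMM gave -0.02 and -0.02, and ENO3 at 3 hours then stood at -0.48, near that median.

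Without the replicate block of each cow, 0 genes were called for the responder difference at either time, glycolysis and HIF target genes at 18 hours included (0 and 0), and the change of HIF1A with time was -0.41 (edgeR, adjusted p = 0.380). That change was not called with the block either, and the block changed no call of HIF1A or ENO3. The term for library code also gave 0 and 0 in these lists. For the difference at 18 hours, glycolysis and HIF target genes called were 5 and 7 without a filter, 5 and 6 with DESeq2 and with an adjusted p below 0.1. RLE factors gave 3 glycolysis genes, library totals 2, and length offsets 2 HIF target genes. Without 1 cow both lists gave 0 to 2. At 3 hours, edgeR called 0 of 15 genes in each list, with 2 and 8 at an unadjusted p below 0.05. There DESeq2 called 1 and 3, no filter and an adjusted p below 0.1 each 2 HIF target genes, and leaving out 1 cow 0 to 1 and 0 to 3. For the mean effect, library totals gave 7 glycolysis genes at 3 hours (2 higher, 5 lower, where SLC2A1 was lost at log2 0.16), and no minimum fold change gave 11 at 18 hours, with 1 and 2 HIF regulators at 3 and 18 hours. The cause of these shifts was not tested. The responder difference of HIF1A at 3 hours was lowest, at log2 0.44, without high responder cow 94. With 3 cows per group, and ENO3 at 26 counts in its lowest library, small differences could not be resolved.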
